A study of Homo sapiens with 18 samples.

Results

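The genes described here are ligands, a receptor, SMAD proteins and targets of TGF-beta and bone morphogenetic protein (BMP) signalling, measured by RNA-seq in ovarian cancer cell lines. The rule that picked them used gene symbols and no measured value, but the genes were chosen with earlier results of these data known. The rule named 9 genes, TGFB1, TGFB2, INHBA, BMP4, TGFBR2, SMAD3, SMAD7, ID1 and ID3. The expression table held 8 of them among its 12853 genes, and BMP4 was not analysed here.

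The study sequenced 6 lines with 3 replicates each, which gave 18 libraries in 3 pairs of a platinum-sensitive line and its resistant counterpart, to ask which expression changes accompany resistance. CP70 is the cisplatin-resistant derivative of A2780 that was selected in vitro, and the labels call both endometrial/ovarian cancer cells. PEA1 and PEA2 came from the ascites of 1 patient with high-grade serous ovarian cancer before platinum treatment and after relapse. PEO1 and PEO4 came from another patient with this disease, and both were taken once platinum had been given, PEO1 before and PEO4 after resistance appeared in the clinic. All lines grew in RPMI-1640 medium with fetal bovine serum, and the labels name no drug treatment for these libraries. Each line is 1 culture history, so a difference within a pair cannot be told apart from any other difference that the 2 lines acquired. The labels do not say that replicates were separate cultures, and the p-values measure only the spread between these libraries.

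TGF-beta ligands such as TGFB1 and TGFB2, and activins, such as activin A, a dimer of the INHBA product, bind pairs of type II and type I receptors on the cell surface. The type I receptor then phosphorylates SMAD2 and SMAD3, which enter the nucleus with SMAD4 and switch genes on or off. BMPs act through related receptors and through SMAD1, SMAD5 and SMAD9, and the ID genes are among their best known direct targets. SMAD7 is an inhibitor that both branches can induce and that blocks the type I receptors. In epithelial cells TGF-beta is known for growth arrest and for epithelial-mesenchymal transition, and serum supplies some of these ligands in culture.

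Libraries held 1344098 to 7067336 reads on listed genes, so that 3 reads, the highest count treated here as at the detection floor, equalled 0.452 to 2.18 CPM (reads per 1e+06 of the scaled library size). No 2 replicates agreed as closely as repeated sampling of 1 library would, since the chi-square of their reads divided by its degrees of freedom was 1.74 to 13.5. The 4 Mullerian and serous markers PAX8, WT1, MUC16 and MSLN summed to at most 0.258 CPM in any A2780 library and at most 1.19 CPM in any CP70 library, against 278 to 388 in PEA1, 450 to 577 in PEA2, 2800 to 4060 in PEO1 and 2820 to 4630 in PEO4. The defining markers of serous ovarian epithelium were therefore absent or nearly so in the A2780 pair. In PEA1 nearly all of the sum was PAX8, at a mean of 330 CPM, with WT1 at 6.14, MUC16 at 1.69 and MSLN at 0.959. The 6 epithelial markers EPCAM, KRT8, KRT18, KRT19, KRT7 and CDH1 summed to 2.24 to 3.13 CPM in A2780, 89.4 to 95.8 in CP70, 154 to 202 in PEA1, 3740 to 3910 in PEA2, 4680 to 4920 in PEO1 and 3250 to 3680 in PEO4. Of the fibroblast markers 4 of 5 were analysed, and they summed to 508 to 713 CPM in A2780, 870 to 1010 in CP70, at most 2.67 in the PEA lines, 151 to 170 in PEO1 and 222 to 229 in PEO4. The gene behind the sum differed by line. In A2780 it was COL3A1, at a mean of 626 CPM, with COL1A2 at 0.273, LUM at 0.889 and THY1 at 2.76. In PEO1 it was THY1, at 162 CPM, with COL1A2 at 0.329, COL3A1 at 0 and LUM at 0.0502. The leukocyte marker PTPRC lay between 20.1 and 25.1 CPM and the endothelial marker CDH5 between 25.3 and 36.1 CPM in PEA2, against at most 0.526 and 0.406 CPM elsewhere, and each was the only gene analysed of its list of 4 or 3.

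In the PEA pair the resistant line carried far more INHBA transcript and 2.76-fold more TGFBR2 transcript. It carried far less of TGFB2, the inhibitor SMAD7 and the BMP targets ID1 and ID3. The A2780 pair shared the rise of INHBA and TGFBR2 and the fall of TGFB2 and SMAD7, while ID1 was slightly higher in CP70. In the PEO pair INHBA moved the other way, down in PEO4, together with TGFB2, SMAD3 and ID3. TGFB2 was the only one of the 8 genes that was lower in the resistant line of all 3 pairs at an FDR below 0.05, which 1.21% of all genes were, and 2.8% of all genes passed in 1 shared direction in all 3 pairs. Because these are bulk libraries, fewer expressing cells and less RNA per cell cannot be told apart.

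With the thresholds of the study, an absolute log2 fold change (log2FC) above 2 and a false discovery rate (FDR) below 0.05 over all 12853 genes with limma, 2 of the 8 genes were called in the A2780 pair, against 9.06% of all genes. Both were higher in CP70, namely INHBA and TGFBR2. In the PEA pair 5 of 8 were called, against 14.1% of all genes, with INHBA higher and TGFB2, SMAD7, ID1 and ID3 lower in PEA2. In the PEO pair 2 of 8 were called, against 6.22% of all genes, and both TGFB2 and INHBA were lower in PEO4. By direction, 5.66%, 7.93% and 2.86% of all genes were called higher and 3.4%, 6.15% and 3.37% lower in the resistant lines of the A2780, PEA and PEO pairs. None of the 8 genes passed both thresholds in all 3 pairs, as 0.7% of all genes did. At the FDR threshold alone 7, 7 and 5 of the 8 genes passed in the A2780, PEA and PEO pairs, against 39.9%, 61.9% and 41.5% of all genes. Of these, 4, 3 and 1 were higher in the resistant line (22.2%, 32.5% and 19.6% of all genes) and 3, 4 and 4 were lower (17.7%, 29.4% and 21.9% of all genes). The libraries of the 2 lines did not overlap for 6, 7 and 7 of the 8 genes, against 54.6%, 62.6% and 57.5% of all genes. The median log2FC of the 8 genes was 0.45, -1.44 and -0.63 in the 3 pairs, while the median of all genes was -0.02, 0.01 and -0.02.

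**Figure D1:**
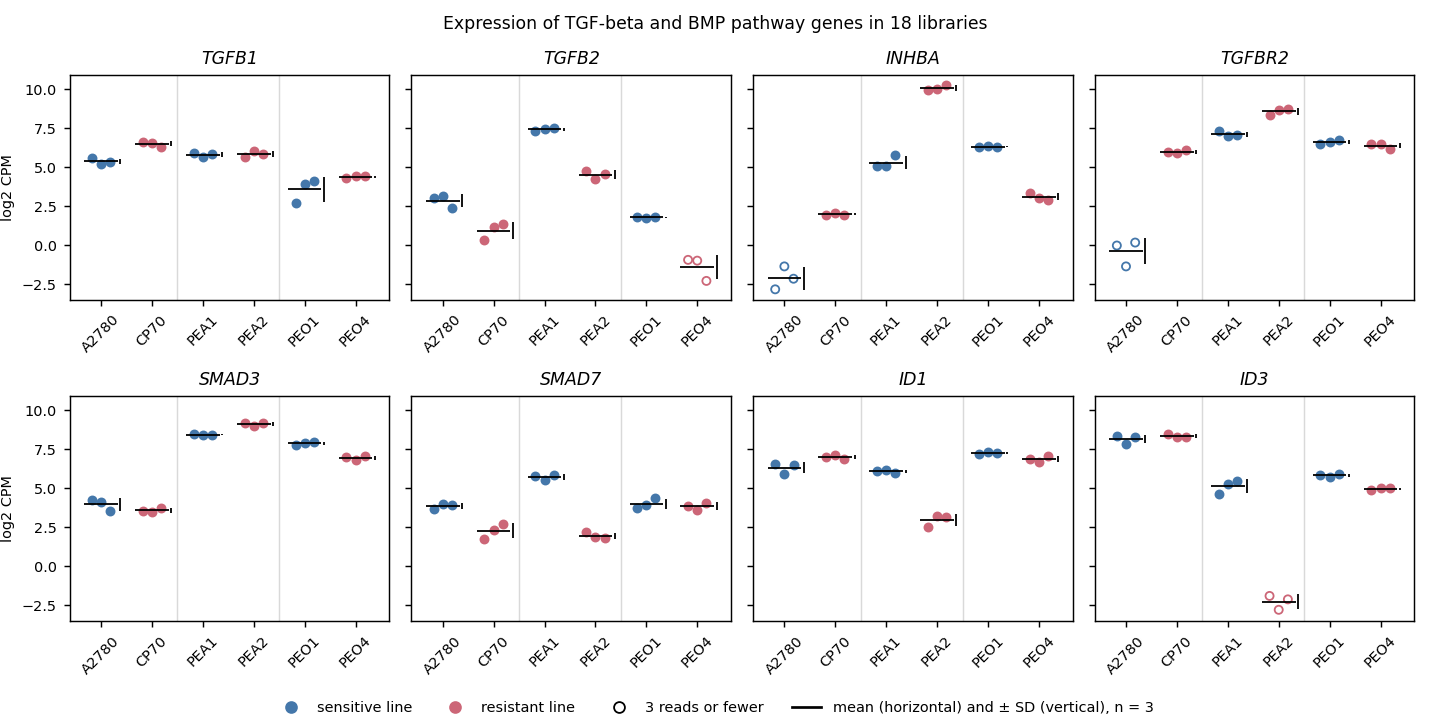
Log2 CPM of the 8 genes in each of the 18 libraries, 1 panel per gene, with the 6 lines on the x axis in the order of their pairs and log2 CPM on the y axis. Blue points are libraries of sensitive lines and red points those of resistant lines, open circles had 3 reads or fewer, and bars show the mean and SD of 3 libraries. ID3 had 0 reads in each PEA2 library, and INHBA ran from 0 or 1 read in A2780 to 9.94 to 10.28 log2 CPM in PEA2.

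**Figure D2:**
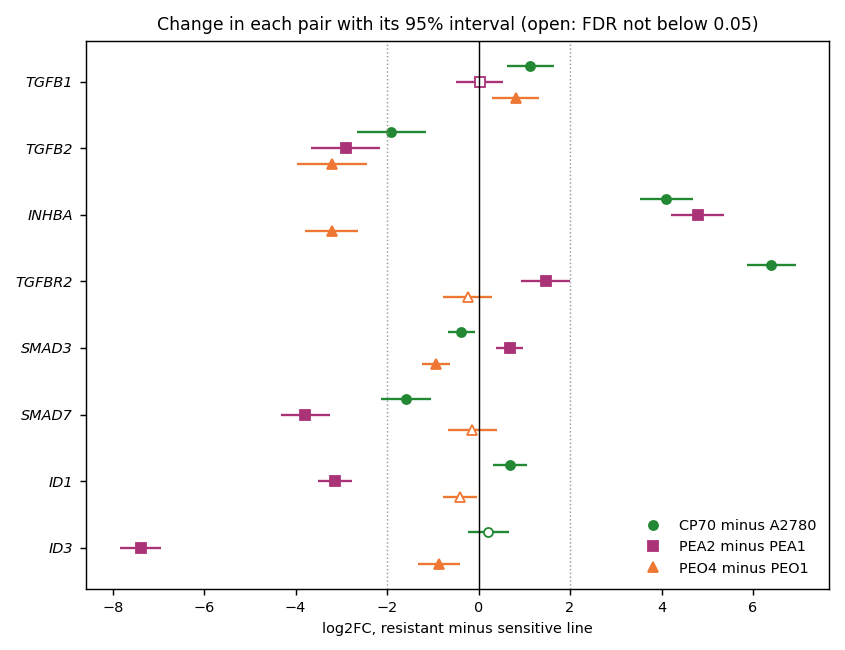
Log2FC of each gene in each pair, resistant minus sensitive line, on the x axis, with its 95% interval from limma. Circles are the A2780 pair, squares the PEA pair and triangles the PEO pair, open symbols did not reach an FDR below 0.05, and dotted lines mark a log2FC of -2 and 2. All 3 symbols of TGFB2 lie left of 0, between -1.91 and -3.20, and INHBA lies right of 0 in 2 pairs and left of 0 in the PEO pair.

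TGFB1 encodes the most widely expressed TGF-beta ligand (ENSG00000105329, GRCh37 chr19:41807492-41859827, minus strand). It read 5.57, 5.22 and 5.32 log2 CPM in the A2780 libraries and 6.62, 6.56 and 6.32 in the CP70 libraries. All CP70 libraries were above all A2780 libraries, a 2.19-fold rise (log2FC 1.13, SE 0.25, limma FDR = 0.001). PEA1 libraries held 5.90, 5.63 and 5.87 log2 CPM and PEA2 libraries 5.64, 6.03 and 5.81. These ranges overlapped, and the log2FC was 0.02 with a 95% interval of -0.49 to 0.54 (limma FDR = 0.938). The lowest levels were in PEO1, at 2.67, 3.93 and 4.12 log2 CPM, below the 4.31, 4.41 and 4.44 of PEO4. The rise in PEO4 was 1.76-fold (log2FC 0.81, SE 0.25, limma FDR = 0.012), and without the first PEO1 library, which had 19 TGFB1 reads, it was 0.36 on the log2 scale and no longer passed (FDR = 0.0786). The annotation places several genes of the opposite strand over TGFB1, among them HNRNPUL1, CCDC97 and TMEM91, and an lncRNA of the same strand. The strand setting of the read counting is not given in the sources used here.

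TGFB2 encodes a second TGF-beta ligand (ENSG00000092969, GRCh37 chr1:218518678-218617961, plus strand). A2780 libraries read 3.0, 3.15 and 2.36 log2 CPM and CP70 libraries 0.30, 1.17 and 1.32. Every CP70 library lay below every A2780 library, with 7 to 9 reads against 11 to 34, a 3.75-fold fall (log2FC -1.91, SE 0.36, limma FDR = 0.000239) that stayed just short of the log2FC threshold. PEA1 held the highest TGFB2 levels of any line, 7.30, 7.46 and 7.51 log2 CPM, and PEA2 read 4.78, 4.24 and 4.53. The PEA lines did not overlap, and the level fell 7.51-fold (log2FC -2.91, SE 0.36, limma FDR = 8.2e-07). In PEO1 the libraries read 1.78, 1.76 and 1.82 log2 CPM, and the PEO4 libraries held 1, 1 and 0 reads. From 42 summed reads in PEO1 and 2 in PEO4 the CPM ratio was 14, with an exact counting interval of 3.65 to 120, and the fitted log2FC of -3.20 (limma FDR = 5.78e-07) depends on the reads added before the logarithm. The order of the lines by mean TGFB2 level was PEA1, PEA2, A2780, PEO1, CP70 and PEO4, and no neighbours in this order overlapped. The lncRNA TGFB2-AS1 lies on the opposite strand of TGFB2 and TGFB2-OT1 on the same strand.

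The 250 bases before the RefSeq start of TGFB2 are shown because this gene fell in every pair. The window, GRCh38.p14 chr1:218345086-218345335 on the plus strand, holds the letters CAGAC at 2 places, in capitals. CAGAC, or GTCTG on the other strand, is the core of the site that SMAD3 and SMAD4 are known to bind, and 38% of 35116 promoter windows of the same length hold it.
TGFB2: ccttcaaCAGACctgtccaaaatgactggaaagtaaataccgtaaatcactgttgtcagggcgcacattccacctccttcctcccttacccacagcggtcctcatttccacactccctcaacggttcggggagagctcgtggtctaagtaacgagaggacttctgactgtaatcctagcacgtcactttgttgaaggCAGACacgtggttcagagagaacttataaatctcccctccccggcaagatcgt

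INHBA encodes the beta A subunit shared by activin A and inhibin A (ENSG00000122641, GRCh37 chr7:41706766-41745432, minus strand). It had the widest range of the ligands. A2780 libraries held 0, 1 and 0 reads, and CP70 libraries held 23, 17 and 14 reads, or 1.94, 2.05 and 1.93 log2 CPM. The lines did not overlap, and the CPM ratio was 37 with an exact counting interval of 6.37 to 1490 (fitted log2FC 4.10, limma FDR = 2.04e-10). PEA1 libraries read 5.05, 5.05 and 5.75 log2 CPM and PEA2 libraries 9.94, 10.01 and 10.28, the latter from 1841 to 3573 reads. PEA2 stood above every other line, and the rise over PEA1 was 27.7-fold (log2FC 4.79, SE 0.28, limma FDR = 1.6e-11). In the PEO pair the sensitive line was the higher one, with 6.28, 6.35 and 6.29 log2 CPM in PEO1 and 3.35, 3.03 and 2.91 in PEO4. INHBA fell 9.26-fold in PEO4 (log2FC -3.21, SE 0.28, limma FDR = 1.8e-08), again with no overlap between libraries. The order of means was PEA2, PEO1, PEA1, PEO4, CP70 and A2780, with no overlap between neighbours. INHBA-AS1, an lncRNA, lies on the opposite strand, and reads of the 2 genes cannot be told apart if the counting did not use strand.

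TGFBR2 encodes the type II receptor that TGF-beta binds first (ENSG00000163513, GRCh37 chr3:30648093-30735634, plus strand). The pseudogene KLHL25P1 lies on the opposite strand of TGFBR2. The A2780 libraries held 3, 1 and 2 reads, at or below the detection floor, and the CP70 libraries read 5.94, 5.90 and 6.11 log2 CPM. From 889 summed reads against 6, the CPM ratio of CP70 to A2780 was 102, with an exact counting interval of 46.5 to 278 (fitted log2FC 6.40, limma FDR = 5.19e-14). A2780 was thus the one line near zero, and the other 5 lines lay between 5.90 and 8.71 log2 CPM. PEA1 libraries read 7.30, 6.99 and 7.03 log2 CPM and PEA2 libraries 8.32, 8.69 and 8.71. All PEA2 libraries were higher, a 2.76-fold rise (log2FC 1.47, SE 0.26, limma FDR = 5.19e-05). PEO1 libraries read 6.50, 6.62 and 6.73 log2 CPM and PEO4 libraries 6.48, 6.47 and 6.17, which barely separated, and the log2FC was -0.24 with a 95% interval of -0.77 to 0.29 (limma FDR = 0.492).

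SMAD3 encodes the receptor-activated transcription factor of the TGF-beta and activin branch (ENSG00000166949, GRCh37 chr15:67356101-67487511, plus strand). Annotated lncRNAs lie on the opposite strand of SMAD3. A2780 libraries read 4.22, 4.14 and 3.51 log2 CPM and CP70 libraries 3.53, 3.46 and 3.73. The lines overlapped, and the log2FC of -0.38 (SE 0.14, limma FDR = 0.0371) lost its call under 8 of 14 alternatives (FDR 0.000266 to 0.201). SMAD3 was higher in PEA2, at 9.18, 8.98 and 9.17 log2 CPM, than in PEA1, at 8.47, 8.40 and 8.41. This rise was 1.61-fold (log2FC 0.68, SE 0.14, limma FDR = 0.000326). PEO1 libraries read 7.76, 7.89 and 7.97 log2 CPM and PEO4 libraries 7.0, 6.79 and 7.05, a 1.90-fold fall without overlap (log2FC -0.93, SE 0.14, limma FDR = 2.34e-05). The 4 lines of the PEA and PEO pairs read at least 6.79 and A2780 and CP70 at most 4.22 log2 CPM, a gap wider than the change within any pair.

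SMAD7 encodes the inhibitory SMAD (ENSG00000101665, GRCh37 chr18:46446223-46477335, minus strand). It read 3.64, 4.01 and 3.90 log2 CPM in A2780 and 1.75, 2.35 and 2.69 in CP70. The fall was 3.01-fold with no overlap (log2FC -1.59, SE 0.26, limma FDR = 4.11e-05). PEA1 had the highest SMAD7 levels, 5.76, 5.54 and 5.87 log2 CPM, and PEA2 had 2.18, 1.85 and 1.78, from 7 to 12 reads per library. SMAD7 thus fell 13.8-fold in PEA2 (log2FC -3.79, SE 0.26, limma FDR = 1.52e-10). PEO1 libraries, at 3.72, 3.89 and 4.35 log2 CPM, overlapped PEO4 libraries, at 3.88, 3.61 and 4.07, and the log2FC was -0.14 with a 95% interval of -0.67 to 0.40 (limma FDR = 0.709). A2780, PEO1 and PEO4 overlapped as neighbours in the order of means, as did CP70 and PEA2. No other annotated gene overlaps SMAD7.

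ID1 and ID3 encode helix-loop-helix proteins without a DNA-binding region, which bind partner transcription factors and keep them from DNA. The annotation gives no other gene over either one. ID1 (ENSG00000125968, GRCh37 chr20:30193086-30194318, plus strand) read 6.55, 5.89 and 6.51 log2 CPM in A2780 and 7.03, 7.12 and 6.86 in CP70, a 1.61-fold rise (log2FC 0.69, SE 0.18, limma FDR = 0.004). PEA1 libraries read 6.13, 6.15 and 5.99 log2 CPM and PEA2 libraries 2.49, 3.23 and 3.16. PEA2 was the low line, with 10 to 32 reads, and ID1 fell 8.78-fold there (log2FC -3.13, SE 0.18, limma FDR = 1.22e-11). PEO1 libraries read 7.18, 7.34 and 7.28 log2 CPM and PEO4 libraries 6.87, 6.67 and 7.04. The PEO lines did not overlap, but the log2FC of -0.40 (95% interval -0.78 to -0.03) had a limma FDR of 0.0781.

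ID3 (ENSG00000117318, GRCh37 chr1:23884417-23885992, minus strand) was highest in the A2780 pair, at 8.32, 7.84 and 8.27 log2 CPM in A2780 and 8.48, 8.28 and 8.30 in CP70. These lines overlapped, with a log2FC of 0.21 and a 95% interval of -0.24 to 0.67 (limma FDR = 0.46). PEA1 libraries read 4.60, 5.28 and 5.46 log2 CPM, from 33 to 76 reads, and each PEA2 library had 0 reads. Against a floor of 3 reads per library, ID3 was at least 27.7-fold lower in PEA2 (fitted log2FC -7.39, limma FDR = 8.89e-16). PEO1 libraries read 5.84, 5.73 and 5.92 log2 CPM and PEO4 libraries 4.89, 5.01 and 4.99. ID3 fell 1.82-fold in PEO4 without overlap (log2FC -0.87, SE 0.22, limma FDR = 0.0031). PEA2 was therefore the lowest line for both ID genes and the highest for INHBA, TGFBR2 and SMAD3. The epithelial markers moved with these results in the PEA pair, since all 6 exceeded 3 reads in PEA2 and in PEA1 KRT7, KRT19 and CDH1 had at most 3, 3 and 4 reads, and their part in the results was not tested.

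The windows before the RefSeq starts of ID1, at GRCh38.p14 chr20:31605039-31605288 on the plus strand, and of ID3, at chr1:23559502-23559751 on the minus strand, are shown because both genes fell in the PEA pair. Capitals mark CAGAC, which ID3 holds at 1 place and ID1 does not hold on either strand. Neither window holds GGCGCC, the core of a site that BMP-activated SMADs are known to bind, which 16.4% of promoter windows contain. Sequence further upstream was not searched, so the sites may lie outside these 250 bases.
ID1: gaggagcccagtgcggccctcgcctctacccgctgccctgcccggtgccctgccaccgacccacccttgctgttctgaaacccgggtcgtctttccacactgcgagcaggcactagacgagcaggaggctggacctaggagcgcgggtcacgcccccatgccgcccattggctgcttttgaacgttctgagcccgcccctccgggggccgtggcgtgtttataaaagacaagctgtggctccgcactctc
ID3: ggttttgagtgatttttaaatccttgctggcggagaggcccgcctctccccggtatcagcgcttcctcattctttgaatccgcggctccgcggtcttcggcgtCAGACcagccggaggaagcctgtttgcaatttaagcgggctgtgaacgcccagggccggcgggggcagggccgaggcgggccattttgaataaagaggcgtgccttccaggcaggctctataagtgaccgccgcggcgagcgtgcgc

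RefSeq gave 15 such windows for the 8 genes, of which 6 hold CAGAC, in TGFB2, SMAD3, SMAD7 and ID3, and 1 of the SMAD3 windows holds GGCGCC. A match of letters in these windows is a description of sequence and was not tied to any measurement here.

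The changes differed between pairs for most of the genes, as tested by contrasts of the log2FC in the same limma fit. The PEA and A2780 pairs differed for 6 of 8 genes at an FDR below 0.05 (57.5% of all genes), the PEO and A2780 pairs for 7 of 8 (47.5% of all genes), and the PEO and PEA pairs for 6 of 8 (58.7% of all genes). Any 2 of these contrasts share the lines of 1 pair. The INHBA change in the PEO pair minus that in the A2780 pair was -7.31 and minus that in the PEA pair -8.0 on the log2 scale (FDR = 9.79e-12 and 3e-12). With 2 reads added the former was -5.68. For INHBA the PEA and A2780 changes differed by 0.69 with a 95% interval of -0.13 to 1.52 (FDR = 0.14), a value that depends on the reads added, since A2780 held 1 INHBA read in all. It was 2.21 with 2 reads added (FDR = 8.97e-07), 1.33 with quantile normalization (FDR = 0.0411) and 1.05 without A2780 replicate 1 (FDR = 0.0107). For TGFB2 the PEA and PEO changes differed by -0.29 with a 95% interval of -1.36 to 0.77 (FDR = 0.64), and it changed sign with quantile normalization (0.34), with 2 reads added (0.84) and without PEO4 replicate 3 (0.15).

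With resistance as a single term over all pairs, 5 of the 8 genes passed an FDR below 0.05, against 24.1% of all genes. TGFB2 had the smallest FDR of the 8 genes, with a log2FC of -2.67 (SE 0.25, limma FDR = 2.85e-06). SMAD7 was also lower (log2FC -1.84, FDR = 0.00347), as was ID3 (log2FC -2.68, FDR = 0.026). TGFBR2 was higher (log2FC 2.54, FDR = 0.0148), as was TGFB1 (log2FC 0.66, FDR = 0.0195). With voom weights ID3 (log2FC -0.24, FDR = 0.606) and TGFBR2 (log2FC 0.88, FDR = 0.0693) no longer passed, and ID3 also missed the threshold without any 1 PEA1 library or PEA2 replicate 1 or 3 (FDR 0.0514 to 0.0524). INHBA, which moved in opposite directions in the pairs, had a log2FC of 1.89 and an FDR of 0.127. This model counts the libraries of a line as replicates of resistance, and with the 3 pair differences as the replicates 0 of 8 genes passed in limma, and 1 of 8, TGFB2, fell below an unadjusted level of 0.05 in limma, with 0.00497. The single-term estimates of all 5 passing genes average pairs whose own changes differed in some contrast. TGFB1 had a log2FC of 0.02 in the PEA pair, and its PEA and A2780 changes differed by -1.10 (limma FDR = 0.0111). For TGFB2 only the PEO and A2780 changes differed, by -1.30 (limma FDR = 0.0429).

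Divided by the length of annotated exons, levels can also be compared between genes. INHBA had the highest mean level of the 8 genes in PEA2, at 131 CPM per kb of exon, against 56 for TGFBR2 and 55.2 for SMAD3 in the same line. In A2780 and CP70 the highest was ID3, at 191 and 219 CPM per kb, and in PEO1 and PEO4 it was ID1, at 125 and 94.6. PEA1 had the most even set, from 4.79 CPM per kb for INHBA to 55 for ID1, with 28.4 for TGFB2 above the 17 for TGFB1. In every other line TGFB1 exceeded TGFB2 per kb, for example 27.8 against 0.311 in CP70 and 6.36 against 0.0375 in PEO4.

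**Figure D3:**
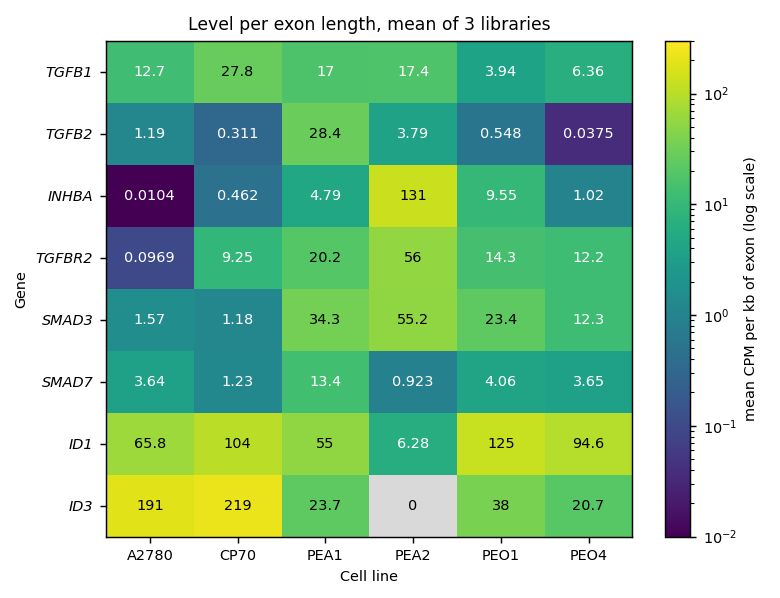
Mean CPM per kb of exon over 3 libraries for the 8 genes (rows) in the 6 lines (columns), with a logarithmic colour scale and the value printed in each cell. The grey cell is ID3 in PEA2, with 0 reads, and the brightest cells of each line are ID3 in A2780 and CP70, INHBA in PEA2 and ID1 in PEA1, PEO1 and PEO4.

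Across the 18 libraries ID1 and ID3 had a Pearson r of 0.88, INHBA had an r of 0.87 with both SMAD3 and TGFBR2, and INHBA and ID3 had an r of -0.84. These are descriptions over 6 lines of 3 libraries each, and the libraries of a line share its level. INHBA and TGFBR2 in A2780 and ID3 in PEA2 lay at or below 3 reads per library. The r values of these genes therefore depend in part on the reads added. The genes with the highest r were NRP1 and BCL2L1 for SMAD3 (both 0.994) and H2AFY2 and UTP18 for ID3 (0.988 and 0.973). They were APBA2 and H2AFX for ID1 (0.985 and 0.97), RASSF2 and IDI1 for TGFB2 (0.978 and 0.957), and CLDN1 and GLCE for INHBA (0.976 and 0.975). PHYHD1 and ETV1 were nearest to TGFB1 (0.948 and 0.937), and UNG and TREX1 to SMAD7 (0.946 and 0.942). SKAP2 had an r of 0.982 with TGFBR2. These genes were picked by r itself from all genes with a symbol, over only 6 lines. Several had few reads in some libraries, for example TREX1 with 1 to 18, RASSF2 with 1 to 40 and PHYHD1 with 0 to 109.

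Around these genes, 8 lists of other pathway members held 79 genes, of which 55 were analysed. In the A2780 pair 20 were higher and 14 lower in CP70 at an FDR below 0.05, in the PEA pair 19 were higher and 19 lower in PEA2, and in the PEO pair 15 were higher and 20 lower in PEO4. Their median log2FC was -0.06, -0.07 and -0.14 in the 3 pairs, close to the medians of all genes. These 34, 38 and 35 of 55 genes stand against 39.9%, 61.9% and 41.5% of all genes. With both thresholds 13, 16 and 9 of the 55 were called, against 9.06%, 14.1% and 6.22% of all genes. The counts by list below are at the FDR threshold and have the same background. Those named next are called genes with a line above 3 reads, up to 4 per list and pair with the largest change.

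Of the other TGF-beta, activin and nodal ligands 3 of 10 were analysed. INHBB, the beta B subunit of activins, had 0 reads in each PEA1 library and 70 to 168 in PEA2, at least 20.9-fold higher. In the PEO pair INHBB fell in PEO4 (log2FC -4.89, limma FDR = 6.04e-08), so both activin subunits rose in PEA2 and fell in PEO4. Of the BMP and GDF ligands 2 of 10 were analysed, and BMP7 rose in PEO4 (log2FC 4.99, limma FDR = 7.85e-07), with 2 to 8 reads in PEO1 and 122 to 144 in PEO4. BMP8B was 4.40-fold higher in PEA2 (exact counting interval 1.32 to 22.9), from 22 summed reads against 3.

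Of the receptors 10 of 12 were analysed, with 1 higher and 3 lower in CP70, 2 higher and 4 lower in PEA2, and 4 higher and 2 lower in PEO4 at an FDR below 0.05. ACVR2B, a type II receptor for activins, fell in CP70 (log2FC -2.49, limma FDR = 1.58e-07). BMPR1B, a type I BMP receptor, fell in PEA2 (log2FC -2.27, limma FDR = 0.00193). All 5 remaining receptor-regulated and common SMADs were analysed, with 2 higher and 3 lower in CP70, 1 higher and 4 lower in PEA2, and 3 higher and 1 lower in PEO4. SMAD9, which carries BMP signals, rose in CP70 (log2FC 2.24, limma FDR = 0.00217) and was 56.7-fold lower in PEA2 (exact counting interval 15.1 to 478), with 68 summed reads in PEA1 and 2 in PEA2.

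All 9 intracellular inhibitors were analysed, with 2 higher and 3 lower in CP70, 4 higher and 3 lower in PEA2, and 2 higher and 5 lower in PEO4. BAMBI, a pseudoreceptor that is a known target of the pathway, had 33 to 40 reads in the PEA1 libraries and 0 in each PEA2 library, at least 19.4-fold lower. PMEPA1, a TGF-beta-induced inhibitor, had 0 reads in each A2780 library and 4 to 7 in CP70, at least 1.19-fold higher.

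Of the latent binding proteins and extracellular antagonists 11 of 15 were analysed, with 6 higher and 1 lower in CP70, 5 higher and 1 lower in PEA2, and 1 higher and 6 lower in PEO4. Among the BMP antagonists CHRDL1 (log2FC 5.14, limma FDR = 7.76e-08) and GREM1 (log2FC 3.21, limma FDR = 4.13e-06) rose in PEA2, and NOG was 43.3-fold higher (exact counting interval 16.7 to 160). TWSG1 fell in PEA2 (log2FC -1.17, limma FDR = 6.45e-10), and NBL1 had a log2FC of -0.62 (limma FDR = 0.133), both named here after their values were seen. CHRDL1 and LTBP1, which binds latent TGF-beta, moved in opposite directions in the PEA and PEO pairs, since LTBP1 had a log2FC of 2.36 in the former and -2.03 in the latter and CHRDL1 fell by 2.65 on the log2 scale in PEO4. LTBP4 was 6.23-fold higher in PEO4 (exact counting interval 2.50 to 18.6). In the A2780 pair the proteoglycan DCN (log2FC 3.37), the activin-binding FSTL3 (log2FC 2.25) and NOG (5.03-fold, exact counting interval 1.51 to 26.2) were higher in CP70. LTBP2 was lower there (fitted log2FC -2.35), with 4 to 9 reads in A2780 and 0 to 4 in CP70.

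All 11 TGF-beta target genes were analysed, and they split in direction in every pair, with 6 higher and 3 lower in CP70, 5 higher and 4 lower in PEA2, and 3 higher and 3 lower in PEO4. In CP70 CDKN2B, which encodes a cyclin-dependent kinase inhibitor, rose (fitted log2FC 2.98), with 0 to 4 reads in A2780 and 18 to 29 in CP70. CDKN1A, another such inhibitor (log2FC -4.48), and the transcription factor SNAI2 (log2FC -4.88) fell. TGFBR2 went from the floor to 5.98 ± 0.11 log2 CPM (SD, n = 3) in CP70, and its part in these changes was not tested. In PEA2 the fibronectin gene FN1 rose (log2FC 4.21, limma FDR = 4.55e-11), and the metalloproteinase inhibitor gene TIMP3 was at least 68.6-fold higher. In the same line the collagen gene COL1A1 (log2FC -6.67, limma FDR = 9.02e-12) and the actin-binding protein gene TAGLN (log2FC -3.46) fell. TAGLN had 12 to 17 reads in PEA1 and 0 to 7 in PEA2. In PEO4 TGFBI fell (log2FC -3.92, limma FDR = 1.03e-07) and SNAI2 was 7.35-fold lower (exact counting interval 1.81 to 64.5).

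Of the other BMP target genes 4 of 7 were analysed, with 0 higher and 1 lower in CP70, 0 higher and 3 lower in PEA2, and 1 higher and 2 lower in PEO4. ID4, a further member of the ID family, fell in PEA2 with ID1 and ID3 (log2FC -2.92, limma FDR = 2.59e-06) and rose in PEO4 (log2FC 4.33, limma FDR = 3.69e-08). RUNX2, a transcription factor of bone formation, fell in CP70 (log2FC -6.92, limma FDR = 3.39e-13), with 191 to 344 reads in A2780 and 1 to 7 in CP70.

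**Figure D4:**
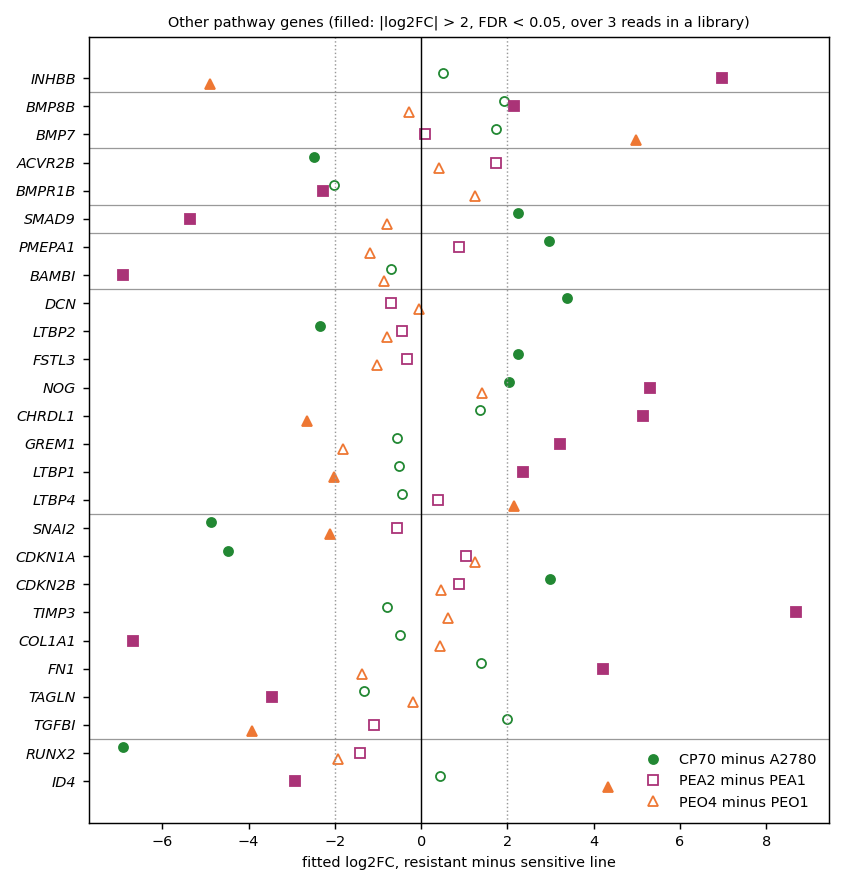
Fitted log2FC, resistant minus sensitive line, on the x axis for the 26 other pathway genes named in the text, each past both thresholds in at least 1 pair, grouped by list from ligands at the top to BMP targets at the bottom. Circles are the A2780 pair, squares the PEA pair and triangles the PEO pair, filled symbols passed both thresholds with a line above 3 reads, and fitted values of genes at the floor depend on the reads added. INHBB lies at 6.96 in the PEA pair and at -4.89 in the PEO pair, and ID4 lies at -2.92 and 4.33.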

How the data were processed

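RNA-seq of rRNA-depleted total RNA from 18 libraries, 6 lines with 3 replicates each, was analysed. Per the labels and the study's methods, the authors made strand-specific libraries, assigned aligned reads to hg19 genes with featureCounts, normalized them with limma and deposited log2 CPM with 0.5 reads added. The submitters' processing notes also name Bowtie2. The filter on genes and the strand setting are not given in the sources used here. Whole reads were recovered from 100% of values (tolerance 0.01), and every sample column was used.

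Tests used limma 3.58.1 (R 4.3.3) on the deposited log2 values, with a variance trend and a mean for each line, in 1 fit of all libraries. Tests were two-sided, with Benjamini-Hochberg FDR over 12853 genes. Differences between pairs were contrasts of this fit, and a further model of all libraries had terms for pair and resistance. Ratios near the floor of 3 reads used CPM from summed reads with exact 95% counting intervals, which cover counting error only, as the floor does. Fold sizes elsewhere are on the log2 CPM scale with 0.5 reads added. Levels per kb used exon unions of GENCODE on GRCh37. Promoter windows came from RefSeq on GRCh38.p14, of which the 250 bases before each start were used, so their coordinates are not those of the gene spans.

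The genes, pathway lists and marker lists were chosen with earlier results of these data known. The pathway genes named in the text are those called at both thresholds in a pair with a line above 3 reads, at most 4 per list and pair with the largest change, and the 2 genes most like each gene are those with the highest Pearson r, except that a few genes which the rule would name are not reported here, though counts over lists hold them. The design counted 9 genes, and 8 were tested since BMP4 was not analysed here. The scripts were tested on simulated data, where some unchanged genes also passed the FDR. Alternatives were separate fits for the pairs, only genes with a mean log2 value above 0, quantile normalization, CPM over the plain total of reads, 2 reads added, voom weights, no variance trend, the replicate block, a log2FC threshold of 1, pair differences as replicates, and the omission of single libraries. The ATAC-seq and platinum adduct data of the study were not analysed here.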

Additional observations from a re-analysis of the deposited data

Results flagged for a closer look

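For 19 of 24 combinations of a gene and 2 pairs, the change with resistance differed between the pairs by a limma contrast with an FDR below 0.05 over all genes. The values are differences of log2FC, the second-named pair subtracted from the first, and contrasts with a pair in common share its libraries. They were counted against 57.5%, 47.5% and 58.7% of all genes in the 3 contrasts.

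INHBA differed by -8.00 for PEO minus PEA, the largest of these values, and by -7.31 for PEO minus A2780. The latter depends on the reads added, since A2780 held at most 1 INHBA read per library, and was -5.68 with 2 reads added. ID3 differed by -7.61 for PEA minus A2780, 6.53 for PEO minus PEA and -1.08 for PEO minus A2780, and its 0 reads in PEA2 make the first pair of these values depend on the reads added. TGFBR2 differed by -6.64 for PEO minus A2780, by -4.93 for PEA minus A2780 and by -1.70 for PEO minus PEA, with A2780 at the floor in the first pair of these.

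ID1 differed by -3.82 for PEA minus A2780, 2.73 for PEO minus PEA and -1.09 for PEO minus A2780. SMAD7 differed by 3.65 for PEO minus PEA, -2.20 for PEA minus A2780 and 1.45 for PEO minus A2780. SMAD3 had smaller differences of -1.61 for PEO minus PEA, 1.07 for PEA minus A2780 and -0.55 for PEO minus A2780 (FDR = 0.0304). The last of these did not pass with voom weights (FDR = 0.0813), without the trend (FDR = 0.0593), or without A2780 replicate 3 (-0.32, FDR = 0.09), CP70 replicate 3 (FDR = 0.0822), PEO1 replicate 2 (FDR = 0.054), PEO1 replicate 3 (FDR = 0.0699) or PEO4 replicate 2 (FDR = 0.0832). TGFB1 differed by -1.10 for PEA minus A2780, and TGFB2 by -1.30 for PEO minus A2780 (FDR = 0.0429), which rests on 2 reads in PEO4.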

How the results depend on the processing

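Of 24 changes of a gene within a pair, 19 kept their direction and their side of the FDR threshold under every alternative run, and of 336 values 11 changed side and 5 changed sign. The sign changed for 2 genes near 0 that had not passed, TGFB1 in the PEA pair (-0.09 with quantile normalization, -0.22 with plain totals, -0.06 without PEA1 replicate 2, -0.08 without PEA2 replicate 2, and -0.08 to 0.12 over all single libraries left out) and SMAD7 in the PEO pair (0.04 without PEO1 replicate 3, in a range of -0.27 to 0.04). Between the PEO and PEA pairs the TGFB2 difference turned to 0.34 with quantile normalization, 0.84 with 2 reads added and 0.15 without PEO4 replicate 3 (range -0.53 to 0.15). SMAD3 in the A2780 pair no longer passed with each pair fitted alone (FDR = 0.201), plain totals (FDR = 0.0598), voom weights (FDR = 0.0781) or no trend (FDR = 0.0706), or without A2780 replicate 1 (FDR = 0.199), A2780 replicate 2 (FDR = 0.149), CP70 replicate 1 (FDR = 0.0973) or CP70 replicate 2 (FDR = 0.129). TGFB1 in the PEO pair was lost without PEO1 replicate 1 (log2FC 0.36, FDR = 0.0786), and ID1 in the PEO pair passed with each pair fitted alone (FDR = 0.0035) and with voom weights (FDR = 0.0121). With a log2FC threshold of 1 in place of 2, 5 genes in place of 2 were called in the A2780 pair. With pair differences as replicates, 3 values per gene, 0 in place of 5 genes passed over all pairs, and TGFB2 had a limma FDR of 0.98.

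Without each library in turn, 6 to 7, 7 to 7 and 4 to 5 genes passed the FDR in the A2780, PEA and PEO pairs, 2 to 3, 5 to 5 and 2 to 2 passed both thresholds, 4 to 5 passed over all pairs and 17 to 20 differences between pairs passed. The third call in the A2780 pair was TGFB2, whose log2FC was -2.14 without A2780 replicate 3, -2.03 without CP70 replicate 2 and -2.10 without CP70 replicate 3. Over all pairs voom weights also called INHBA (FDR = 0.0499). The TGFB2 difference between the PEO and A2780 pairs lost its call under most alternatives, for example with 2 reads added (-0.25, FDR = 0.604). With 2 reads added the fitted log2FC was 2.55 for INHBA in the A2780 pair, -2.04 for TGFB2 in the PEO pair and -5.44 for ID3 in the PEA pair.

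Same-numbered libraries of a pair did not deviate together (r -0.035 to 0.048 over 9 combinations, 0 above 0.1, 4 best with their own number). The labels give them only a number in common, and this check cannot show whether they shared a preparation. With the replicate block 2 and 7 genes passed both thresholds and the FDR alone in the A2780 pair, 5 and 7 in the PEA pair and 2 and 5 in the PEO pair, 5 passed over all pairs and 18 differences between pairs passed. The block changed no call within a pair, and the 1 difference it lost was that of TGFB2 between the PEO and A2780 pairs (FDR = 0.0507). Depth limits the low levels, since INHBA and TGFBR2 in A2780, TGFB2 in PEO4 and ID3 in PEA2 lay at or below 3 reads per library.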
